A study of Mus musculus with 6 samples.

Results

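The 10 genes described here are effectors and targets of the Hippo pathway: *Yap1*, *Wwtr1* and *Tead1*, which carry out the pathway's transcriptional output, and *Ankrd1*, *Ccn1*, *Ccn2*, *Amotl2*, *Lats2*, *Ajuba* and *Axl*, which are known targets of that output or act on it and are called targets here. All probe sets that the array's annotation assigns to 1 of these genes alone were taken, 24 of the 45037 probe sets that are not controls. The genes are 10 of 18193 measured. They were chosen by their known place in the pathway and with their knockout minus wild-type differences on these same arrays already known, so those differences are given as a description, with no p-value. Tail tip fibroblasts of newborn *Hotair* knockout mice were compared with those of wild-type mice, with 3 arrays per genotype. All the mice were backcrossed to C57BL6, and the knockout lacks *Hotair*, a long noncoding RNA of the Hoxc cluster. The allele, the number of animals behind an array and the culture passage are not given in the sources used here. The RNA was total RNA, read on Affymetrix arrays by probe sets, groups of short probes that mostly lie near the 3′ end of a transcript. Values are log2 signals after RMA, a method that corrects background, makes the arrays' distributions alike and summarises each probe set, so a difference of 1 log2 unit is a 2-fold change of signal.

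The Hippo pathway is a kinase cascade that restrains growth. Its kinases, among them LATS1 and LATS2, phosphorylate the coactivators YAP and TAZ (the products of *Yap1* and *Wwtr1*) and keep them out of the nucleus. When the cascade is quiet, as in spread cells on a stiff surface, YAP and TAZ bind TEAD proteins on DNA and raise the transcription of genes such as *Ccn1*, *Ccn2* and *Ankrd1*. Some targets, *Lats2* and *Amotl2* among them, feed back to restrain YAP. In fibroblasts the output is linked to matrix production, contraction and wound repair. Because YAP and TAZ are controlled mainly by phosphorylation and location, which arrays do not measure, their transcripts say little about their activity.

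TEAD proteins bind the letters GGAATG, and the promoters of the genes that differed most are shown because members that move together may share such letters. RefSeq promoters of assembly GRCm38.p6, 250 bases before to 50 bases after each start, were matched for 8 of the 10 genes by symbol, and *Ccn2* and *Tead1* had no entry. The 250 bases before the start are printed for 4 targets, 5′ to 3′ on the gene's strand, with GGAATG or its reverse complement CATTCC in capitals.
Ankrd1, chr19:36119845-36120094, minus strand: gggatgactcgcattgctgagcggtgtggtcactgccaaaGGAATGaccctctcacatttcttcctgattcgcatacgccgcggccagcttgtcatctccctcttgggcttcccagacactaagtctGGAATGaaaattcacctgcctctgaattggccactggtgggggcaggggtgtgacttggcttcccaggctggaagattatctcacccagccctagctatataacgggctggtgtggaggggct
Ccn1, chr3:145649986-145650235, minus strand: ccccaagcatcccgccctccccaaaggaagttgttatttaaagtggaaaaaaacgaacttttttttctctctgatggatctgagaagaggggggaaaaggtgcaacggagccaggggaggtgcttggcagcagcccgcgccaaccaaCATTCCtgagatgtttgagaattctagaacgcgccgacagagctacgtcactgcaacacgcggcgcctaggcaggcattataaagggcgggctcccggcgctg
Amotl2, chr9:102717554-102717803, plus strand: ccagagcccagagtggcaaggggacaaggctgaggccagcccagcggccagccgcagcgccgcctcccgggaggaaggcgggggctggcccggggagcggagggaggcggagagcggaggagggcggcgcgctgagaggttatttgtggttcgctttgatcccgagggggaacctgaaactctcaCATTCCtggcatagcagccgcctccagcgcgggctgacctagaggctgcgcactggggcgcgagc
Ajuba, chr14:54577662-54577911, minus strand: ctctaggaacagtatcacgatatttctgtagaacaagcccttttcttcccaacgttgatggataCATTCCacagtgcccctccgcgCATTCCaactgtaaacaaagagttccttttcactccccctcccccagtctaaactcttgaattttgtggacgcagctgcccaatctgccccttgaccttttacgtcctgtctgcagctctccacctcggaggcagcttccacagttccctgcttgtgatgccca
Over the whole window of 300 bases, on both strands, 8 of 8 genes held the motif at 1 start or more. Of all 27025 genes with a promoter 16.6% did, and of 17491 protein-coding genes 15.5%. By promoter, 9 of 10 held it, against 14.7% of all 32851 promoters. *Ankrd1* and *Ajuba* held 2 matches each, and 1.36% of all promoters held 2 or more. The first base of the match lay 210 and 123 bases before the start in *Ankrd1*, 103 before it in *Ccn1*, 65 before it in *Amotl2*, 186 and 164 before it in *Ajuba*, 233 before it in *Axl* and 141 before it in *Yap1*. *Wwtr1* has a pair of annotated starts 34 bases apart, and a single match lies 170 and 136 bases before them, so it counts in both promoters. *Lats2* also has a pair of starts, with a match at base 5 after one of them and none at the other. As a second motif, TGANTCA, the letters that AP-1 factors of the Fos and Jun family bind, was found in 0 of 8 genes and in 8.97% of all genes. Most of these genes are textbook targets of YAP, and a match is a run of letters, not a measured binding site.

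**Figure D1:**
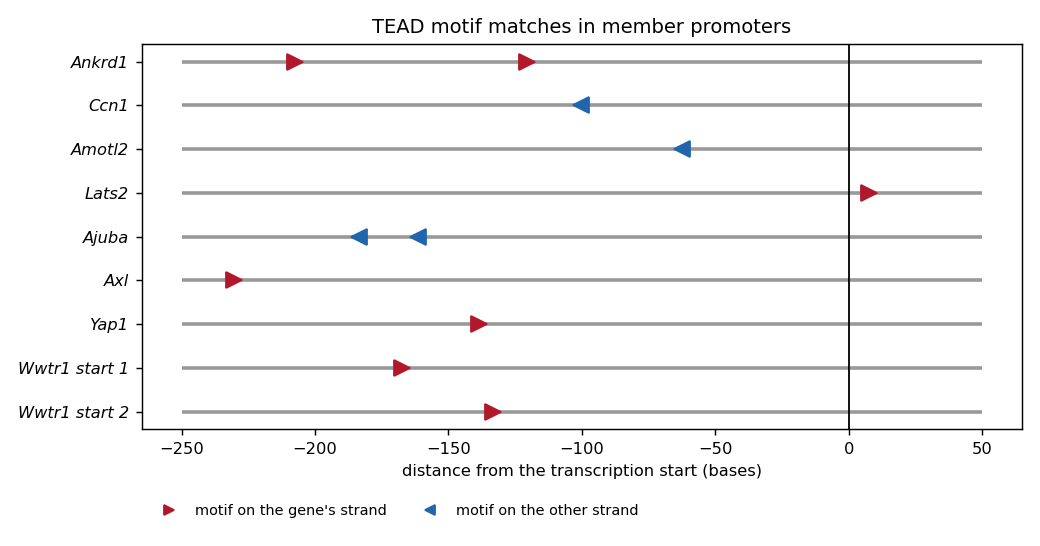
Positions of GGAATG on either strand in RefSeq promoters of 8 genes, drawn as bases from the transcription start (0); grey lines are the 300 base windows and triangles the matches, pointing along the motif's strand. Each of the 9 promoters drawn holds 1 or 2 matches, most of them before the start, and the *Lats2* start with no match is left out.

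Before the values, some facts of the arrays bear on them. Replicate 1 of both genotypes stood apart from the other 4 arrays on the first principal component, which held 48.9% of the variance. On the second, with 29.9%, knockout replicates 2 and 3 lay at −59.1 and −71.0 and wild-type replicates 2 and 3 at 75.3 and 66.0. Replicate 1 lay between them in both genotypes, at 0.7 in knockout and −11.9 in wild type. Over all probe sets knockout replicate 1 correlated at 0.984 with wild-type replicate 1. With knockout replicates 2 and 3 it correlated at 0.946 and 0.957. Median log2 signals of 11 proliferation genes were 8.4, 11.4 and 11.45 in knockout replicates 1 to 3, against 7.56, 11.24 and 11.45 in wild-type replicates 1 to 3. In knockout replicate 1 the 3′ probe sets of the *Actb* and *Gapdh* controls exceeded the 5′ ones by 0.63 and 0.75 log2 units. The 5 other arrays reached at most 0.21 and −0.03. Degraded RNA can widen this gap, and whether it did here was not tested. Fibroblast markers had list medians of 12.18 to 12.74 in knockout and 11.72 to 12.23 in wild type, with 10 of 10 above the median gene on average and 8 of 10 on every array. The list also differed by genotype: 8 of 10 means were higher in knockout, where 48.9% of all genes were below 0. Limma called 0 over all arrays. Without replicate 1 of both genotypes it called 4, all higher, where 7.56% of all genes were called higher. Over all arrays the matrix proteoglycans *Dcn* and *Lum* and the surface protein *Thy1* differed most, by 3.10 ± 1.08, 2.64 ± 1.06 and 2.85 ± 1.86 (SE). *Thy1* measured 12.15, 4.65 and 7.17 in wild-type replicates 1 to 3 and was lower in knockout within replicate number 1 (−0.44). The groups did not overlap for *Dcn*, *Col3a1* and *Pdgfrb*, higher in knockout, and for *Vim*, lower in knockout. The part of these markers in the results below was not tested. Of the markers of other cells, above the median gene were 1 of 11 for skeletal and cardiac muscle, 0 of 8 for keratinocytes, 0 of 7 for endothelium and 3 of 7 for leukocytes. Leukocyte list medians were 7.3, 5.25 and 4.99 in knockout replicates 1 to 3, against 6.47, 5.2 and 5.3 in wild-type replicates 1 to 3, so they were highest on both replicate 1 arrays. *Hotair* itself was not analysed here and could not serve as a check of the labels. For the brightest probe set of each of the 10 genes, the difference is therefore also given by replicate number and without replicate 1.

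Transcripts of 7 targets were lower on average in knockout fibroblasts, with the largest differences for *Ankrd1* and *Ccn2*, while those of *Yap1*, *Wwtr1* and *Tead1* were near their wild-type level on the brightest probe set. Over the 10 genes, each by its brightest probe set, the differences ran from −3.56 to −0.04, with a median of −0.82, against 0.01 over all genes. The median was −1.23 for the 7 targets and −0.04 for the 3 effectors. All 24 probe sets had a lower mean in knockout. The groups did not overlap, with every knockout array below every wild-type array, for 5 of 24 probe sets, where the share over all probe sets was 4.43%, and for 2 of 10 genes, where it was 4.38% of all genes. By limma 0 of the 24 probe sets were called, and 0% of all probe sets were (smallest adjusted p = 0.924). At an unadjusted p under 0.05 there were 2406 of all probe sets, 5.34%. Arrays of bulk cultures cannot tell fewer cells that make a transcript from less RNA per cell.

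*Yap1*, the coactivator itself, was read by a pair of probe sets. The brighter one measured 11.97, 11.2 and 11.14 in knockout replicates 1 to 3, against 11.79, 11.36 and 11.3 in wild-type replicates 1 to 3. The groups overlapped, and replicate 1 was the highest array of each genotype. The difference was −0.04 ± 0.28 (SE), by replicate number it was 0.19, −0.16 and −0.15, and without replicate 1 it was −0.16. The dimmer probe set measured 9.17, 7.53 and 7.83 in knockout against 9.25, 8.29 and 8.51 in wild type, a difference of −0.50 ± 0.49 (SE). It was lower in knockout by each replicate number, at −0.08, −0.75 and −0.68, so the probe sets of *Yap1* disagreed in size.

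*Wwtr1* encodes TAZ, the paralog of YAP, and its 3 probe sets had differences of −0.14 to −0.04. The brightest measured 11.26, 11.68 and 11.78 in knockout, against 11.04, 11.52 and 12.28 in wild type. Wild-type values spanned 1.24 and enclosed all knockout values. By replicate number the differences were 0.22, 0.16 and −0.50, with no common direction, and without replicate 1 the difference was −0.17.

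*Tead1*, a DNA-binding partner of YAP and TAZ, measured 11.94, 11.94 and 11.61 in knockout, against 11.81, 12.08 and 12.07 in wild type, on its brighter probe set. The difference was −0.15 ± 0.16 (SE), and the groups overlapped. By replicate number it was 0.13, −0.13 and −0.46, and without replicate 1 it was −0.30. The other probe set differed by −0.50 ± 0.31 (SE), mostly by replicate numbers 1 and 3 (−0.45 and −1.01, against −0.03 for number 2).

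*Ankrd1*, an ankyrin repeat protein of striated muscle that is also a standard readout of YAP, had the largest difference of the 10 genes. It measured 8.34, 6.77 and 6.98 in knockout replicates 1 to 3, against 11.2, 10.78 and 10.81 in wild-type replicates 1 to 3. Every knockout array lay below every wild-type array, and the knockout spread (SD 0.85) was wider than the wild-type one (SD 0.23). The means were 7.36 in knockout and 10.93 in wild type (n = 3 each), an 11.8-fold lower signal in knockout, with a difference of −3.56 ± 0.44 (SE). The second probe set measured 8.84, 6.28 and 6.91 in knockout, against 10.83, 10.47 and 10.7 in wild type, also without overlap. By replicate number the first probe set differed by −2.86, −4.0 and −3.83, so *Ankrd1* was low in knockout replicate 1 as well, unlike the other strongly lower targets. Without replicate 1 of both genotypes the difference was −3.92, a 15.1-fold lower signal. Median signals of the 11 muscle markers were 5.78, 4.48 and 4.61 in knockout, against 6.26, 5.03 and 4.84 in wild type, and their median difference was −0.09. Of these markers 10 had a lower mean in knockout, 1 of them at an unadjusted p under 0.05, where 2.67% of all genes were lower at that level. Over all arrays *Acta1*, skeletal muscle actin, was at −2.27 ± 1.58, *Nppb* at −1.51 ± 1.68 and *Tnnt2*, cardiac troponin T, at −1.22 ± 0.47 (SE). Without replicate 1 of both genotypes limma called 2 of the 11 lower and 0 higher, where 6.41% and 7.56% of all genes were. These were *Acta1* (−2.73, limma adjusted p = 0.0153) and *Tnnt2* (−1.98, limma adjusted p = 0.00795). *Nppb* did not pass (−1.62, limma adjusted p = 0.135). The list median there was −0.04, and this fit was chosen after replicate 1 was seen to stand apart. The muscle markers' part in the *Ankrd1* difference was not tested.

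*Ccn2* (formerly *Ctgf*) encodes a secreted matrix-associated protein of fibrosis and wound repair. Its single probe set measured 13.88, 10.56 and 10.45 in knockout, against 14.4, 14.35 and 14.5 in wild type. Wild-type arrays agreed within 0.16, while knockout replicate 1 lay 3.37 above the mean of the other knockout arrays and just below all wild-type arrays. The difference was −2.79 ± 0.94 (SE), a 6.9-fold lower signal, and by replicate number it was −0.52, −3.78 and −4.06. Without replicate 1 it was −3.92, as for *Ankrd1*.

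*Ccn1* (formerly *Cyr61*), a secreted relative of *Ccn2* that binds integrins, was read by 4 probe sets. The brightest measured 13.24, 10.83 and 10.39 in knockout, against 13.24, 13.28 and 12.78 in wild type. Knockout replicate 1 lay among the wild-type arrays, and the groups therefore overlapped. The difference was −1.62 ± 0.75 (SE), and by replicate number it was −0.01, −2.45 and −2.4. The other 3 probe sets of *Ccn1* differed by −1.82, −1.21 and −1.37, and within replicate number 1 by −0.22, 0.36 and 0.33. A pair of them, made from the same sequence record, spanned 2.28 and 2.34 among wild-type arrays, far more than the 0.50 of the brightest. A suffix with x marks probe sets whose probes may also match other transcripts, and 2 of the 4 for *Ccn1* carry it. Without replicate 1 the 4 probe sets differed by −2.62 to −1.99.

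**Figure D2:**
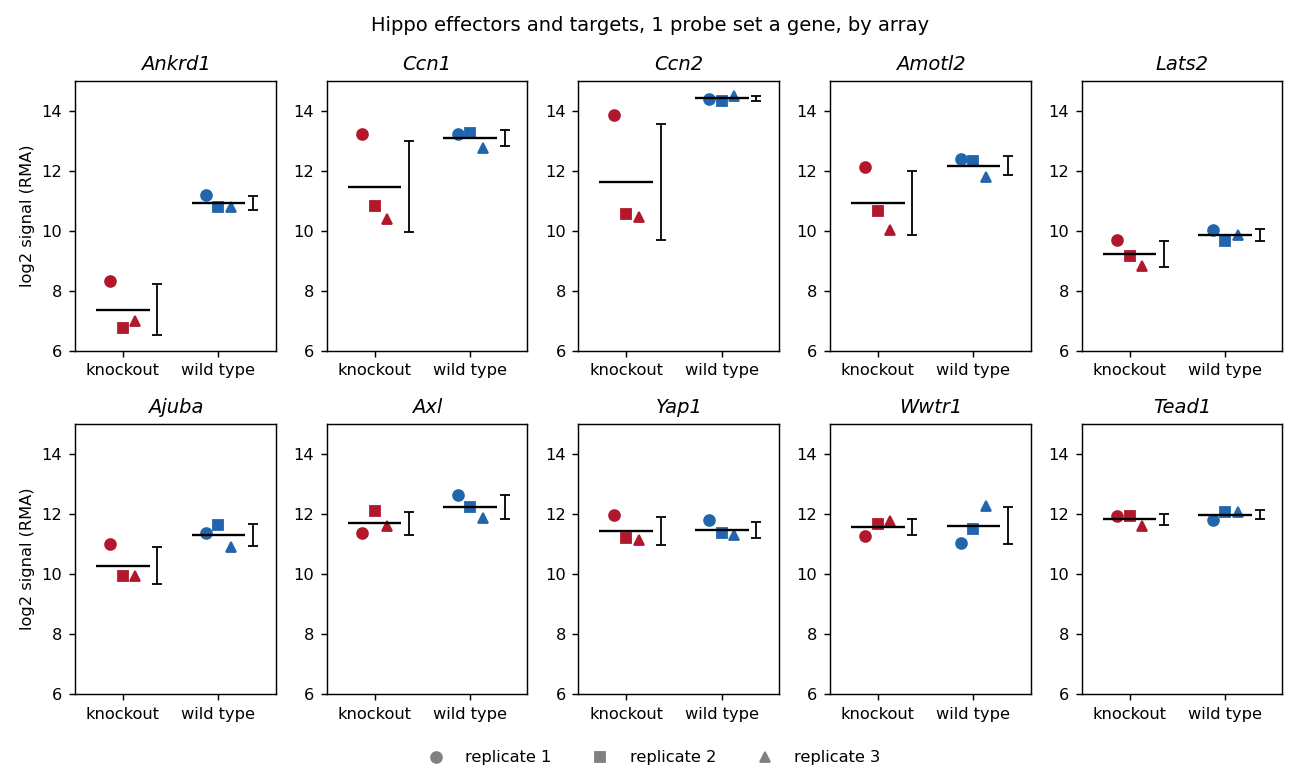
Log2 signal of the brightest probe set of each gene (vertical axis) in the 3 knockout and the 3 wild-type arrays, with the symbol giving the replicate number, a bar at the mean and a whisker of 1 SD beside it. *Ankrd1* is low in all 3 knockout arrays, *Ccn1*, *Ccn2*, *Amotl2* and *Ajuba* are lowest in knockout replicates 2 and 3, and *Yap1*, *Wwtr1* and *Tead1* overlap.

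*Amotl2*, an angiomotin family protein that binds YAP and holds it outside the nucleus, showed the same split among knockout arrays as *Ccn1*. It measured 12.13, 10.65 and 10.04 in knockout, against 12.4, 12.32 and 11.8 in wild type. Only knockout replicate 1 lay within the wild-type range. The difference was −1.23 ± 0.55 (SE), and by replicate number it was −0.27, −1.66 and −1.76. Without replicate 1 it was −1.71.

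*Ajuba*, a LIM protein that binds LATS kinases at junctions, measured 11.0, 9.92 and 9.93 in knockout, against 11.36, 11.65 and 10.9 in wild type. Knockout replicate 1 was again the highest knockout array and lay above wild-type replicate 3. The difference was −1.02 ± 0.36 (SE), with −0.36, −1.73 and −0.97 by replicate number and −1.35 without replicate 1.

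*Lats2*, the kinase that phosphorylates YAP and is itself a YAP target, was read by 6 probe sets, all with a lower mean in knockout (−0.74 to −0.15). The brightest measured 9.69, 9.15 and 8.83 in knockout, against 10.04, 9.65 and 9.86 in wild type. The groups overlapped only through knockout replicate 1 and wild-type replicate 2. The difference was −0.63 ± 0.25 (SE), and by replicate number it was −0.36, −0.50 and −1.04. Without replicate 1 it was −0.77. A further probe set measured 6.77, 7.57 and 7.31 in knockout, against 7.99, 8.14 and 7.75 in wild type, without overlap and with knockout replicate 1 the lowest array. The dimmest did not overlap either but differed by only −0.15, at a level below the median probe set. On a pair of other probe sets, replicate 1 was the highest array of both genotypes, at 8.16 in knockout and 8.98 in wild type on the first and at 6.11 and 7.3 on the second. On the first of these, the 4 other arrays measured 6.02 and 6.07 in knockout and 6.5 and 6.07 in wild type, so its values followed the replicate number more than the genotype. An additional probe set assigned to both *Lats2* and its neighbour *Xpo4* was not used.

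*Axl*, a receptor tyrosine kinase for the ligand Gas6, measured 11.37, 12.09 and 11.6 in knockout, against 12.63, 12.24 and 11.86 in wild type. The groups overlapped, and, alone among the targets by their brightest probe sets, the widest gap was within replicate number 1, at −1.26, against −0.15 and −0.26 for numbers 2 and 3. The difference of −0.56 ± 0.28 (SE) was −0.21 without replicate 1. The second probe set of *Axl* was dim (3.27 in knockout and 3.39 in wild type) and is no usable measure.

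By replicate number, the median difference of the 10 genes was −0.31, −1.08 and −1.0 for numbers 1, 2 and 3, against −0.03, −0.01 and 0.10 over all genes. Without replicate 1 it was −1.06, against 0.04. Within all 3 replicate numbers 7 of 10 genes were lower in knockout, where 13.4% of all genes were. *Yap1*, *Wwtr1* and *Tead1* were the exceptions, each higher in knockout within number 1. *Ccn1* counted as lower by only −0.01 within number 1, where its other 3 probe sets stood at −0.22, 0.36 and 0.33. The low proliferation signal of both replicate 1 arrays and their higher leukocyte medians coincide with the smaller differences of *Ccn1*, *Ccn2*, *Amotl2* and *Ajuba* there. So does the wider 3′ to 5′ gap of the controls in knockout replicate 1. The part of these features was not tested.

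**Figure D3:**
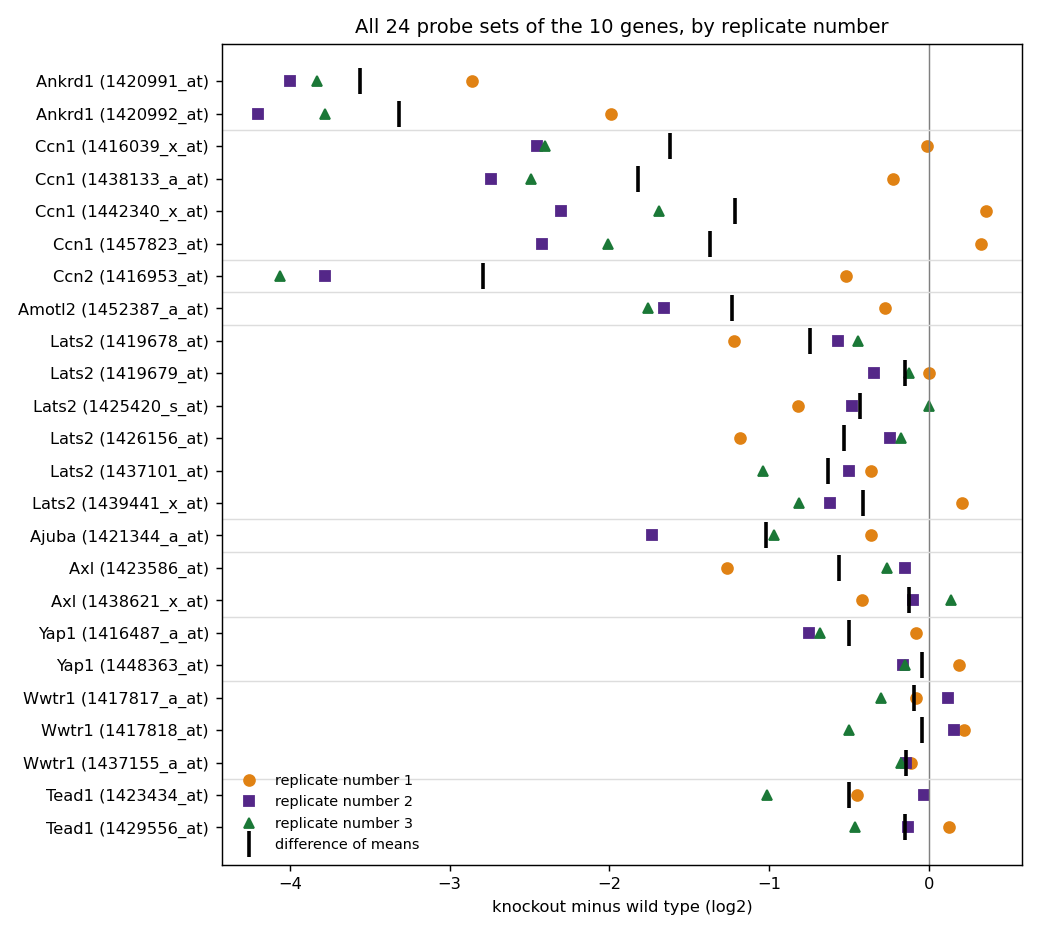
Knockout minus wild-type difference (log2, horizontal axis) of each of the 24 probe sets within replicate numbers 1, 2 and 3, with a black tick at the difference of means. For *Ccn1*, *Ccn2* and *Amotl2* number 1 lies near 0 and numbers 2 and 3 well below it, for *Ankrd1* all 3 lie at −1.99 or lower, and for *Axl* number 1 lies lowest.

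Genes whose profile over the 6 arrays was most like that of the leading targets were sought by the root mean square distance of values centred on each gene's mean. Predicted gene models and clone names were passed over. Nearest to *Ccn1* were *Pdlim5*, *Gspt2* and *Tes*, at distances of 0.14, 0.16 and 0.23 log2 units. *Pdlim5*, which encodes a PDZ and LIM protein of the actin cytoskeleton, measured 12.21, 9.98 and 9.24 in knockout and 12.01, 12.27 and 11.93 in wild type. It shared with *Ccn1* the knockout replicate 1 value at wild-type level. Nearest to *Ccn2* were *Inhba*, a subunit of activins, *Endod1* and the growth factor adaptor *Grb10*, at 0.27, 0.29 and 0.35. Their differences between genotypes were −2.62, −2.34 and −2.92. *Ankrd1* had no close neighbour among the genes kept: *Cd80*, the homeobox factor *Msx2* and the desmosomal *Dsp* stood at 0.69, 0.72 and 0.73.

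The rest of the pathway was described through 7 lists that hold none of the 10 genes, with 81 of 86 genes measured. No gene of these lists passed the test between genotypes by limma over all genes, and 0% of all 18193 genes did (smallest adjusted p = 0.743). At an unadjusted p under 0.05 there were 9 list genes lower and 5 higher in knockout, where 2.67% and 4.01% of all genes were. Every knockout array lay below every wild-type array for 7 of the 81 and above for 5, where 4.38% and 5.56% of all genes did.

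Upstream of YAP, the 14 measured genes of the kinase core had a median difference of −0.18, with 8 below 0. By replicate number their median was 0.24, −0.38 and −0.57. *Rassf1*, a scaffold that activates the Hippo kinases, measured 11.23, 10.84 and 10.69 in knockout and 11.38, 11.51 and 11.72 in wild type, without overlap. It differed by −0.62 ± 0.19 (SE; limma adjusted p = 0.743). *Wwc2*, a relative of the scaffold KIBRA, differed by −0.71 ± 0.31 (SE). The 11 adaptors and junction proteins had a median of −0.50, with 7 below 0 and 4 above. The protocadherin *Dchs1* measured 5.99, 6.84 and 7.09 in knockout and 5.98, 5.58 and 5.85 in wild type. The giant cadherin *Fat1* measured 12.58, 12.48 and 11.64 in knockout and 12.62, 13.76 and 13.24 in wild type. Their groups did not overlap, and *Dchs1* stood at 0.84 ± 0.31 and *Fat1* at −0.97 ± 0.38 (SE).

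A pair of relatives of *Tead1* stood on opposite sides of wild type. *Tead4* measured 6.69, 4.87 and 4.67 in knockout, against 7.32, 6.85 and 7.38 in wild type. *Tead2* measured 9.2, 9.63 and 9.63 in knockout, against 9.19, 8.16 and 8.46 in wild type. Their knockout and wild-type arrays did not overlap, although for *Tead2* knockout replicate 1 and wild-type replicate 1 were almost equal. The differences were −1.78 ± 0.56 and 0.89 ± 0.30 (SE; limma adjusted p = 0.743 for both). The list of 8 TEAD relatives, VGLL cofactors and RUNX1 had a median of −0.05. Of 7 of these genes with a RefSeq promoter 5 held GGAATG.

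Other YAP targets stood on both sides of 0. The 16 remaining genes of a published signature of YAP and TAZ activity had a median of −0.20, with 12 below 0 and 4 above, where 48.9% of all genes were below 0. By replicate number the signature's median was 0.13, −0.37 and −0.52. *Crim1*, a transmembrane protein that binds BMPs, measured 10.24, 9.5 and 9.52 in knockout and 10.49, 10.53 and 10.76 in wild type, a difference of −0.84 ± 0.24 (SE; limma adjusted p = 0.743). *Foxf2*, a forkhead factor of mesenchyme, measured 6.63, 4.68 and 4.68 in knockout, against 6.0, 8.15 and 8.01 in wild type, a difference of −2.06 ± 0.79 (SE). Its direction within replicate number 1 was opposite (0.63, against −3.47 and −3.33). The 10 other targets had a median of 0.10 with 7 above 0. *Thbs1*, the matrix protein thrombospondin 1, measured 13.14, 12.12 and 11.49 in knockout and 13.87, 14.3 and 13.66 in wild type, without overlap. It differed by −1.69 ± 0.44 (SE; limma adjusted p = 0.743). *Ptx3*, a secreted pentraxin, stood on the other side, with 10.47, 11.61 and 11.25 in knockout against 8.86, 4.48 and 8.38 in wild type. Its difference of 3.87 ± 1.19 (SE) drew most on wild-type replicate 2. Of 10 signature genes with a RefSeq promoter 2 held GGAATG, and of 7 other targets 1 did.

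Genes controlled by the actin-sensing factors MRTF and SRF, which share targets with YAP, had a median of −0.32 over 14 genes, 12 of them below 0. *Tpm1*, a tropomyosin, and *Vcl*, the adhesion protein vinculin, differed by −0.69 ± 0.26 and −0.88 ± 0.39 (SE), with overlapping groups. *Acta2*, smooth muscle actin, measured 14.56, 14.38 and 14.35 in knockout against 14.77, 14.74 and 14.55 in wild type, and *Tagln* differed by −0.65 ± 0.43 (SE). The 8 direct targets of TGF-beta had a median of −0.51 with 6 below 0. By replicate number the median of this list was 0.31, −0.36 and −0.85, so number 1 went the other way. *Tgfbi*, a matrix protein named for its induction by TGF-beta, was at 1.20 ± 0.43 and the homeobox corepressor *Tgif1* at −0.65 ± 0.26 (SE).

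Without replicate 1 of both genotypes, a comparison of 2 against 2 arrays, limma called 28 of the 81 genes, 18 lower and 10 higher in knockout, where 6.41% and 7.56% of all genes were called. In that fit *Tead4* fell (−2.35, limma adjusted p = 0.00795), and *Tead2* rose (1.33, adjusted p = 0.0123). *Foxf2* fell (−3.40, limma adjusted p = 0.00229), as did *Thbs1* (−2.18, adjusted p = 0.0156), *Crim1* (−1.13, adjusted p = 0.0149), *Wwc2* (−1.16, adjusted p = 0.0118) and *Rassf1* (−0.85, adjusted p = 0.0305). Of the adaptors and junction genes 6 of 11 fell and 3 rose, and *Dchs1* was among those that rose (1.25, limma adjusted p = 0.016). In the kinase core 3 of 14 fell and 0 rose, and in the signature 4 of 16 fell and 2 rose. The signature genes that rose were *Igfbp3* (2.73, limma adjusted p = 0.0103) and *Tgfb2* (1.70, limma adjusted p = 0.0252). Of the 10 other YAP targets 1 fell, *Thbs1*, and 1 rose, *Gli2* (4.16, limma adjusted p = 0.0253). Of the 8 TGF-beta targets 2 fell and 1 rose. Among the MRTF and SRF targets 1 fell, *Vcl* (−1.26, limma adjusted p = 0.0275), and 2 rose. These were the smooth muscle genes *Cnn1*, which encodes calponin (3.05, limma adjusted p = 0.00533), and *Actg2*, an actin (1.55, limma adjusted p = 0.00849). Both were picked for mention with their values in view. Over all 6 arrays *Cnn1* stood at 1.55 ± 1.36 and *Actg2* at 0.54 ± 1.06 (SE). Within replicate number 1 both went the other way, at −1.45 and −1.49. Wild-type replicate 1 was the highest array for each, at 13.19 and 13.07. *Acta2* did not pass in the fit without replicate 1 (−0.28, limma adjusted p = 0.334). These 4 arrays were taken after it was known that replicate 1 stands apart.

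**Figure D4:**
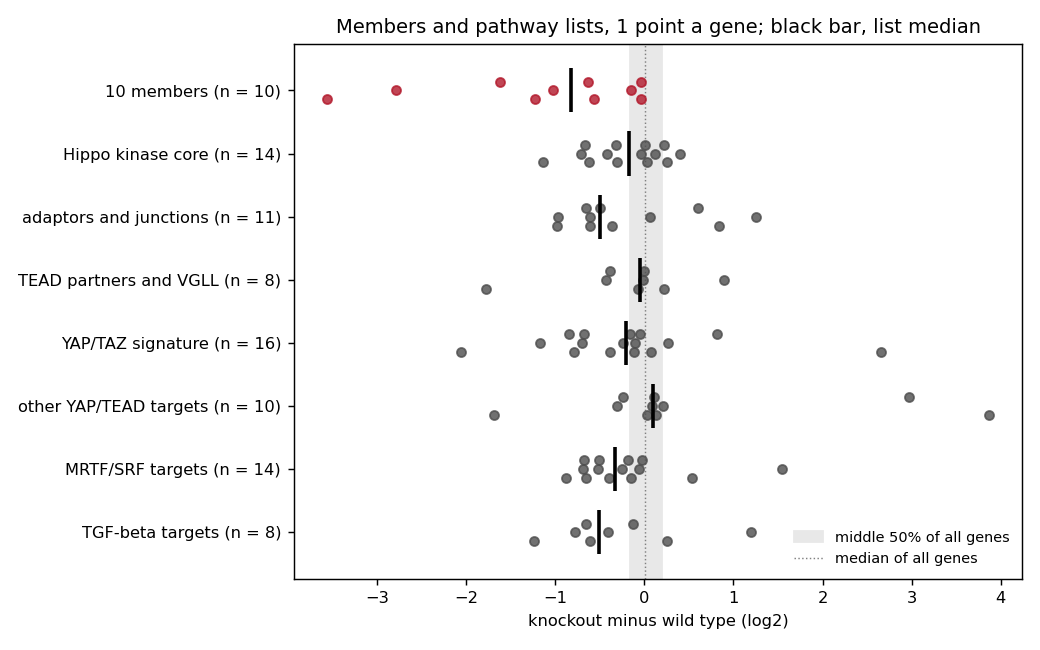
Knockout minus wild-type difference (log2, horizontal axis) of each gene in the 10 effectors and targets and in the 7 other lists, with a black bar at each list's median and grey shading over the middle 50% of all genes. The 10 genes have a median of −0.82, and the medians of the other lists lie between −0.51 and 0.10.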

How the data were processed

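The values deposited for the 6 arrays, 3 knockout and 3 wild type, are log2 signals of probe sets, which the authors made with RMA under R 2.11.1 according to the labels, that is, per the submitters' processing notes. The method forces equal distributions, so a change of total RNA cannot be seen, and dim differences are compressed. RNA came from a Qiagen RNeasy kit and was labelled with biotin, per the labels' protocols.

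Probe sets were named from the platform's annotation: of 45037 that are not controls, 34945 had 1 gene, 932 several and 9160 none, and only the first kind was named. Differences were fitted by limma 3.58.1 under R 4.3.3 (lmFit, eBayes, genotype as the only term, Benjamini-Hochberg adjustment, threshold 0.05), over all 45037 probe sets for the 10 genes, and over 18193 genes, each by the probe set with the highest mean, for the lists. Standard errors come from these fits. The members and lists were chosen with earlier results of these data known. Named by rule beside the members were the 2 genes of smallest p in each pathway list, *Acta2*, *Tagln* and the 3 nearest profiles of *Ankrd1*, *Ccn1* and *Ccn2*. Outside this rule, *Cnn1*, *Actg2*, *Gli2*, *Igfbp3* and *Tgfb2* were named with their values in view. So were *Dcn*, *Lum*, *Thy1*, *Col3a1*, *Pdgfrb*, *Vim*, *Acta1*, *Nppb* and *Tnnt2* of the cell type marker lists. The fits were tested on simulated data.

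Whether the 3 arrays of a genotype stand for different animals or dishes is not given in the sources used here, so p-values reflect only how much these samples varied, possibly for technical reasons. Precision is limited by the number of arrays. After subtracting the genotype means, arrays sharing a number correlated at 0.50, 0.49 and 0.25 for numbers 1, 2 and 3, over the 0.1 that was set as the bar for pairing. Knockout replicate 2 and wild-type replicate 3 also correlated at 0.33, so the pairing of numbers 2 and 3 is less clear. The quoted standard errors come from the fit with genotype alone and leave this pairing out. With replicate number as a block they were 0.27 in place of 0.44 for *Ankrd1* and 0.35 in place of 0.55 for *Amotl2*. For *Tead1* it was 0.17 in place of 0.16, each by the brightest probe set. Alternatives were the replicate block, leaving out each array or both replicate 1 arrays, array weights, a filter at the 40th percentile of mean signal, eBayes with trend and robust settings, renewed quantile normalization and 2 other ways to represent a gene.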

Additional observations from a re-analysis of the deposited data

How the results depend on the processing

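Over 6 arrays limma called 0 probe sets, 0 genes and 0 list genes, with 2406, 1216 and 14 at an unadjusted p under 0.05. With the replicate block the counts of calls were again 0, 0 and 0 (4001, 2017 and 21 at an unadjusted p under 0.05). The block was not combined with the other alternatives. Leaving out 1 array gave 0 to 48 probe sets, 0 to 87 genes and 0 to 1 list gene. The calls came only without knockout replicate 1, where the list gene was *Tead4* (−2.42, limma adjusted p = 0.044). With both replicate 1 arrays left out the counts were 1836 probe sets, 2542 genes and 28 list genes, and with array weights 2101 genes and 29 list genes but 0 probe sets. Of these list genes 24 were called both ways. In the gene fit, wild-type replicate 1 and knockout replicate 1 had the lowest weights, 0.244 and 0.329. The other arrays had 1.04 to 3.18, so the weighted fit and the fit without replicate 1 are not independent. The filter on dim signals, the eBayes settings, renewed normalization and the 2 other gene representations called 0. The cause was not tested. The median difference of the 10 genes lay between −1.12 and −0.65 over the alternatives, those that leave out 1 array included. *Wwtr1* was at 0.29 without wild-type replicate 3, at 0.11 without knockout replicate 1 and at 0.03 with array weights, and *Yap1* at 0.11 without wild-type replicate 1 or knockout replicate 3 and at 0.08 without knockout replicate 2. *Yap1* and *Tead1* were both at −0.50 by their most variable probe set. Without knockout replicate 1 *Ccn1* was at −2.50, without knockout replicate 3 it was at −1.07 and *Amotl2* at −0.78, and without wild-type replicate 1 *Axl* was at −0.36.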
